A study of Mus with 6 samples.

Results

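The genes of the cell division cycle and of DNA replication were examined in cardiac microvascular endothelial cells of mice whose left coronary artery had been tied off, a model of myocardial infarction. A list of 41 gene symbols was used, and all 41 were among the 20893 genes measured. It holds 5 cyclins of the G1 phase, 2 inhibitors of cyclin-dependent kinases (CDKs), 11 genes of S phase and 23 genes of G2 and mitosis. RNA was sequenced from 3 libraries of wild-type (WT) mice and 3 libraries of mice lacking the chemokine gene Ccl28 (KO), and both groups had the coronary ligation. Both carry the replicate numbers 2, 3 and 4. Magnetic bead sorting kept cells with CD31 on their surface and without CD45. The time after ligation, strain, age, sex and number of animals per library were not given in the sources used here. The genotype field of KO replicates 3 and 4 carries symbols other than the Ccl28 of their titles, and the titles were followed. Nothing says that replicates came from separate animals. The p-values set the difference between genotypes only against the variation among these samples, which may thus be technical.

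Most endothelial cells of an adult heart rest outside the cell cycle, and injury brings some of them back into division. D cyclins with Cdk4 or Cdk6 open the G1 phase by acting on the retinoblastoma protein, and E cyclins carry the cell into S phase. The freed E2F factors then switch on the genes of DNA synthesis, such as the MCM helicase, the sliding clamp PCNA and the enzymes that make deoxynucleotides. Cyclins A and B with Cdk1 drive G2 and mitosis, and most genes of that stage are transcribed late in the cycle and silent in resting cells. In a bulk sample, fewer cycling cells and less RNA of these genes per cell cannot be told apart.

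Levels are in FPKM (fragments per kilobase of transcript and scaled to library size), as mean ± SD with n = 3 per genotype. Every log2 fold change sets KO over WT after log2(FPKM + 1), which understates changes of low genes, and a call means an adjusted p under 0.05 in limma over 10806 tested genes. The libraries held 36004457 to 40500067 reads assigned to genes. Ccl28 had 11 to 24 reads in the WT libraries and 0 reads in each KO library. All 10 endothelial markers were above the filter, with a summed level of 4101 to 4181 FPKM in WT and 3830 to 4152 in KO, and 2 of them rose and 4 fell. Of 6 leukocyte markers 5 rose (summed level 38.8 to 71.4 FPKM in WT and 106.3 to 131.9 in KO), while Ptprc, the CD45 gene, ranged from 0.871 to 1.71 FPKM in WT and from 1.01 to 1.41 FPKM in KO and was not called. Of 9 tested macrophage markers 6 rose (91.5 to 224.5 FPKM in WT, 223.6 to 343.9 in KO), all 3 tested neutrophil markers rose (14.8 to 19.0 and 35.02 to 56.3), and Ly6g, a neutrophil marker, was listed at 0 in 5 libraries. All 3 tested lymphocyte markers (8.92 to 11.2 and 17.6 to 28.2) and 4 of 5 erythroid markers rose (249.1 to 375.1 and 389.4 to 562.2). Of 8 mural cell markers 7 fell (351.8 to 464.0 FPKM in WT, 238.0 to 370.6 in KO), as did 5 of 6 tested fibroblast markers (23.9 to 27.6 and 13.9 to 16.3). Over all tested genes 18.3% rose and 25.8% fell. With a trend on transcript length subtracted from each library, 2 leukocyte, 2 macrophage, 3 neutrophil, 3 lymphocyte and 0 erythroid markers rose. In that fit 6 mural, 4 fibroblast and 3 endothelial markers fell, and 0 endothelial markers rose. The shares of all tested genes were then 9.28% higher and 9.42% lower. The part of these other cells in the values below was not tested.

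Most cell cycle genes did not pass the test between the genotypes. Of the 37 members above the expression filter, 8 passed the test, or 21.6%, against 44.2% of all tested genes. Ccnd3, Tyms, Birc5, Aurka, Cenpa and Ube2c rose, and Ccnd2 and Ccne2 fell, where Ccne2 met the filter through its WT libraries alone. 18.3% of all tested genes rose and 25.8% fell. The median log2 fold change of the 37 members was 0.10, against -0.03 over all tested genes, and 13 members had an unadjusted p under 0.05. The FPKM of the groups did not overlap for 8 of the 37, the same 8 as were called, against 54.7% of all tested genes. Bub1, Cenpe, Cenpf and Hmmr lay under the filter of at least 1 FPKM in at least 3 libraries. Across members the mean level ranged from 0.302 to 164.9 FPKM, and each library had 62 to 29711 reads per member.

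**Figure D1:**
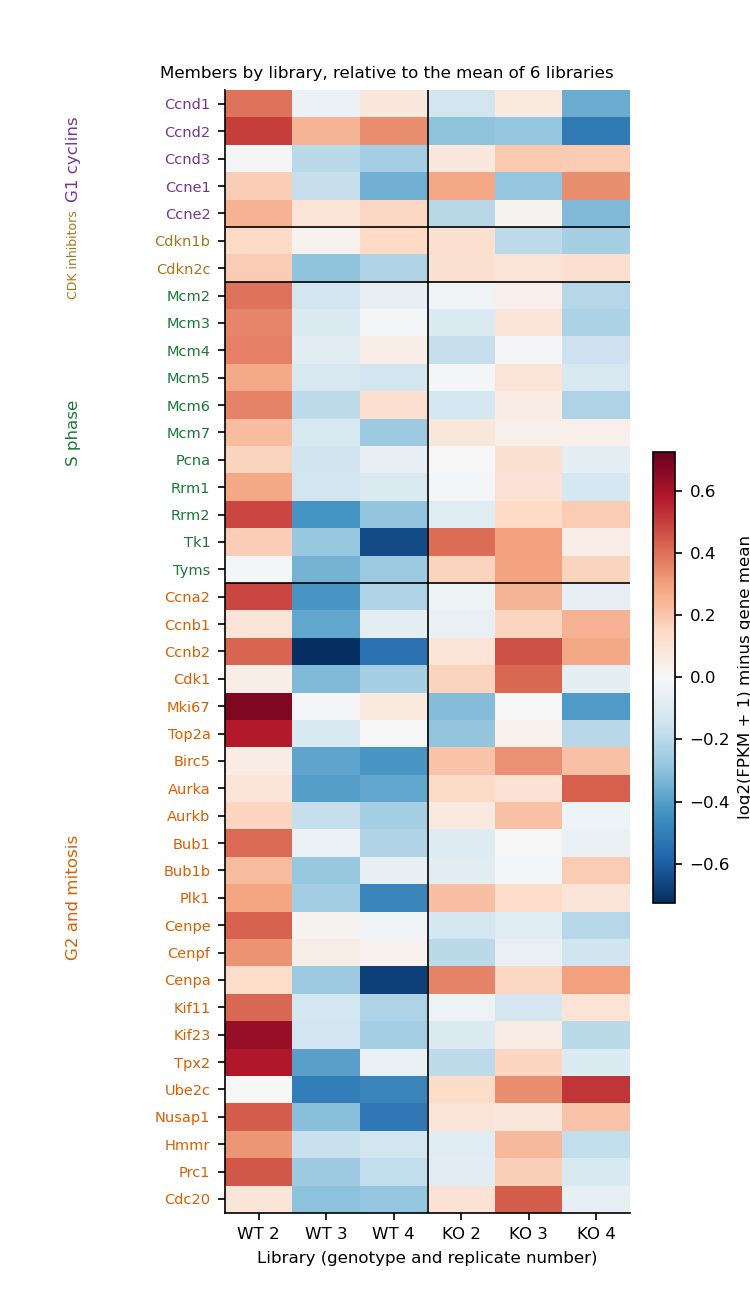
Level of the 41 members (rows, coloured by role) in the 6 libraries (columns), as log2(FPKM + 1) minus the gene's mean over the libraries; red is above and blue below that mean. WT replicate 2 was the highest WT library for all 41 members, and WT replicates 3 and 4 were low for most G2 and mitosis genes.

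WT replicate 2 stood apart from the other WT libraries in these genes. It held the highest WT level of all 41 members and the highest level of all 6 libraries for 28, against 46.7% and 23.6% of all tested genes. Its FPKM was a median of 1.72 times the mean of WT replicates 3 and 4 over the 23 G2 and mitosis genes, from 1.33 times for Cdk1 to 2.37 times for Nusap1. The median ratio was 1.34 over the 11 S phase genes and 1.04 over all tested genes. The summed macrophage markers of this library, at 136.5 FPKM, lay between those of WT replicates 3 and 4 (91.5 and 224.5), and its leukocyte sum was 57.7 FPKM against 38.8 and 71.4. Its neutrophil and erythroid sums also lay in between, and its lymphocyte sum was the highest of WT (11.2 against 10.6 and 8.92). This library was the lowest of WT in mural (351.8 against 452.3 and 464.0) and fibroblast sums (23.9 against 26.9 and 27.6). The same held for cardiomyocyte (110.3 against 149.8 and 160.0) and endothelial sums (4101 against 4181 and 4168). Without WT replicate 2 the other libraries gave 17 calls, 16 higher and 1 lower in KO, against 40.5% of all tested genes (18.5% higher, 22.0% lower). Members whose call depends on leaving out a library are given with that value.

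The D cyclins, which sense growth signals in G1, went in different directions. Ccnd1, a target of many mitogens, was the most abundant member. It had 194.7, 143.5 and 156.4 FPKM in WT replicates 2, 3 and 4 and 134.9, 155.7 and 115.0 FPKM in KO replicates 2, 3 and 4, so the groups overlapped (adjusted p = 0.105 in limma). Its log2 fold change was -0.28, with a 95% interval of -0.58 to 0.01. It passed as lower without KO replicate 3 (log2 fold change -0.39, adjusted p = 0.0376) and with quantile normalization (log2 fold change -0.445, adjusted p = 0.0267).

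Ccnd2, gene ID 12444, on chromosome 6 from 127125162 to 127152188 (GRCm38), encodes the second D cyclin and fell. Its FPKM was 28.6, 23.8 and 25.5 in the WT libraries and 16.1, 16.2 and 13.6 in the KO libraries. Every KO library lay below every WT library, and the level went from 26.0 ± 2.44 to 15.3 ± 1.45 FPKM (log2 fold change -0.72, SE 0.095, limma adjusted p = 0.000624). With a trend on transcript length subtracted from each library (length correction), the log2 fold change was -0.35 (adjusted p = 0.0177). Ccnd2 passed in the same direction in each alternative fit that was run, with an adjusted p of at most 0.0439.

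Ccnd3, gene ID 12445, on chromosome 17 from 47505051 to 47599689, rose. It had 92.5, 81.4 and 78.7 FPKM in the WT libraries and 98.7, 106.6 and 106.4 in the KO libraries. All KO libraries were above all WT libraries, with the closest pair at 92.5 and 98.7 (log2 fold change 0.30, SE 0.079, limma adjusted p = 0.0122). It no longer passed without WT replicate 4 (adjusted p = 0.0607), after length correction (adjusted p = 0.0535) or with quantile normalization (adjusted p = 0.0562).

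The E cyclins, partners of Cdk2 at the start of S phase, were near the filter. Ccne2, gene ID 12448, on chromosome 4 from 11190433 to 11204779, had 1.27, 1.04 and 1.11 FPKM in WT and 0.658, 0.933 and 0.529 in KO. The groups did not overlap and Ccne2 fell (log2 fold change -0.33, SE 0.12, limma adjusted p = 0.0435), but on 62 to 168 reads per library. It met the filter only through WT, where it is high, since all 3 KO libraries lay under 1 FPKM, so the filter favoured a difference, and without the filter it did not pass (adjusted p = 0.0899). That call was lost when any of 5 libraries was left out, with an adjusted p of 0.111, 0.0594 and 0.0912 without WT replicates 2, 3 and 4 and an adjusted p of 0.11 and 0.143 without KO replicates 2 and 4. Ccne1 ran from 0.817 to 1.62 FPKM in WT and from 0.907 to 1.92 in KO, and its groups overlapped.

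The CDK inhibitor genes did not pass. Cdkn1b, which encodes p27 and holds resting cells out of S phase, had 25.5, 23.4 and 25.4 FPKM in WT and 25.01, 20.03 and 19.2 in KO (limma adjusted p = 0.116). Its log2 fold change of -0.21 had a 95% interval of -0.43 to 0.02, and without KO replicate 2 it passed as lower (log2 fold change -0.32, adjusted p = 0.0199). Cdkn2c, which encodes p18, an inhibitor of Cdk4 and Cdk6, had 9.33, 6.45 and 6.81 FPKM in WT and 8.81, 8.76 and 8.88 in KO (limma adjusted p = 0.166). WT replicate 2 was the highest library for both, and without it Cdkn2c passed as higher (log2 fold change 0.36, adjusted p = 0.0123). Cdkn2c also passed as higher in limma with quantile normalization (log2 fold change 0.336, adjusted p = 0.0391).

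**Figure D2:**
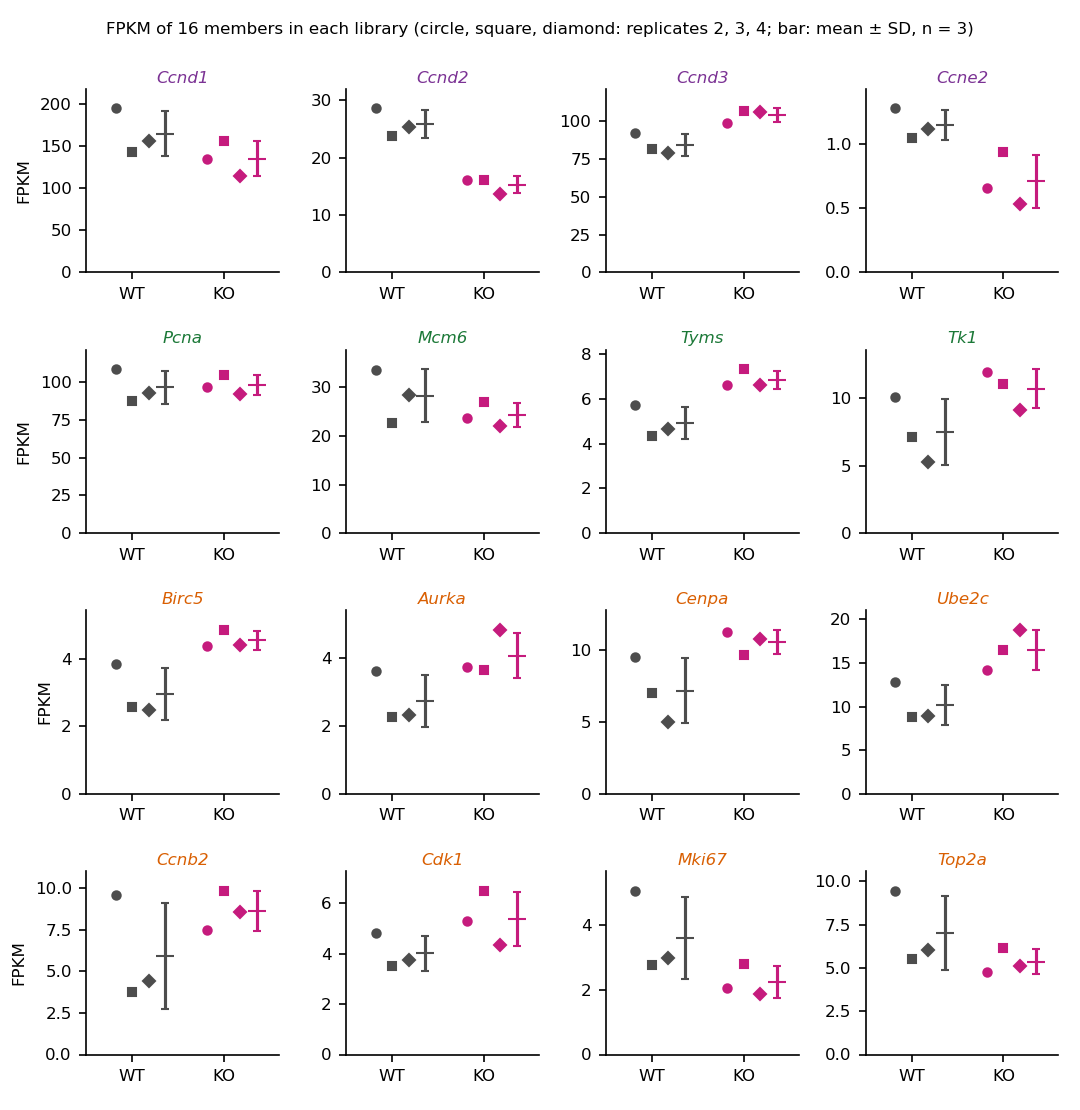
FPKM of 16 members in each library (WT grey, KO magenta; circle, square and diamond are replicates 2, 3 and 4; the bar is mean ± SD, n = 3; each axis starts at 0). Ccnd2 was lower in all 3 KO libraries, while in Ccnb2, Mki67 and Top2a the circle of WT replicate 2 lies far above the other WT points.

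Of the 11 S phase genes, all above the filter, Tyms alone passed, or 9.1% against 44.2% of all tested genes. The median log2 fold change was -0.02, and 5 were above 0 and 6 below. Pcna, the clamp that holds polymerases on DNA, had 108.6, 87.8 and 93.1 FPKM in WT and 97.1, 105.0 and 92.2 in KO, and the groups overlapped (log2 fold change 0.03, 95% interval -0.18 to 0.23).

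The 6 subunits of the MCM2-7 helicase, which unwinds DNA at the replication fork, were also without a call. Mcm3 had 41.1, 29.7 and 31.6 FPKM in WT and 29.8, 34.2 and 27.1 in KO. Mcm6 had 33.7, 22.7 and 28.4 FPKM in WT and 23.7, 27.0 and 22.1 in KO. In both genes the high value was that of WT replicate 2, and the KO libraries lay among or near the other WT libraries. Log2 fold changes of the 6 subunits ran from -0.22 for Mcm4 to 0.11 for Mcm7, with limma adjusted p from 0.139 for Mcm4 to 0.914 for Mcm5. The 95% interval of Mcm4 was -0.47 to 0.03 and that of Mcm7 was -0.15 to 0.36, so changes inside these bounds are not excluded. Calls appeared when 1 library was left out, in opposite directions. Mcm7 passed as higher without WT replicate 2 (log2 fold change 0.24, limma adjusted p = 0.0394). Without WT replicate 3, Mcm6 (log2 fold change -0.34, limma adjusted p = 0.0362) and Mcm4 (log2 fold change -0.32, limma adjusted p = 0.0499) passed as lower.

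Enzymes of deoxynucleotide supply differed among themselves. Tyms, thymidylate synthase, gene ID 22171, on chromosome 5 from 30038546 to 30073645, had 5.73, 4.35 and 4.65 FPKM in WT and 6.60, 7.32 and 6.60 in KO. The groups did not overlap and Tyms rose from 4.91 ± 0.727 to 6.84 ± 0.419 FPKM (log2 fold change 0.41, SE 0.11, limma adjusted p = 0.0111). It passed in every alternative fit run, with an adjusted p of at most 0.0472, and its log2 fold change was 0.68 after length correction. Tk1, the salvage enzyme thymidine kinase, had 10.1, 7.12 and 5.26 FPKM in WT and 11.98, 11.04 and 9.14 in KO. Its groups overlapped through WT replicate 2 (log2 fold change 0.50, limma adjusted p = 0.0505), and without that library the adjusted p was 0.00573. Rrm1, the large subunit of ribonucleotide reductase, had 15.9 to 21.6 FPKM in WT and 16.1 to 19.0 in KO. Rrm2, its S phase subunit, had 10.1, 4.88 and 5.50 FPKM in WT and 6.46, 7.76 and 8.001 in KO (limma adjusted p = 0.561). Rrm2 in WT replicate 2 was above all KO libraries and in WT replicates 3 and 4 below all of them. Without WT replicate 2 it passed as higher in KO (log2 fold change 0.44, adjusted p = 0.017).

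Of the 23 G2 and mitosis genes 19 were above the filter, of which 4 rose and 15 did not pass. These 4 are 21.1% of the 19, near the 18.3% of all tested genes that rose. Log2 fold changes were above 0 in 13 of the 19, against 46.7% of all tested genes, and the median was 0.23. Bub1, Cenpe, Cenpf and Hmmr, left out by the filter, had lower means in KO, so the 19 are not the whole set. Without the filter, which adds low genes to the test, Birc5 (adjusted p = 0.0708), Aurka (adjusted p = 0.145) and Cenpa (adjusted p = 0.141) no longer passed in limma.

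Ube2c, gene ID 68612, on chromosome 2 from 164769929 to 164772902, encodes the ubiquitin-conjugating enzyme that works with the anaphase-promoting complex. It had 12.8, 8.76 and 8.93 FPKM in WT and 14.2, 16.5 and 18.8 in KO. All KO libraries were above all WT libraries, and Ube2c rose 1.62-fold (log2 fold change 0.66, SE 0.14, limma adjusted p = 0.00543). After length correction it stood at 0.24 on the log2 scale and no longer passed (adjusted p = 0.19).

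Cenpa, gene ID 12615, on chromosome 5 from 30666877 to 30674837, encodes the histone H3 variant that marks centromeres. Its FPKM was 9.49, 6.97 and 4.99 in WT and 11.3, 9.63 and 10.7 in KO. The groups were separated by the narrow gap between 9.49 and 9.63, and Cenpa rose 1.48-fold (log2 fold change 0.54, SE 0.17, limma adjusted p = 0.029). It no longer passed without WT replicate 3 (adjusted p = 0.0625) or 4 (adjusted p = 0.0843), without KO replicate 2 (adjusted p = 0.0778) or 4 (adjusted p = 0.0777), and after length correction (adjusted p = 0.202).

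Birc5, survivin, gene ID 11799, on chromosome 11 from 117849237 to 117855743, is part of the chromosomal passenger complex together with Aurkb. It had 3.83, 2.56 and 2.47 FPKM in WT and 4.36, 4.85 and 4.40 in KO. The groups did not overlap and Birc5 rose 1.54-fold (log2 fold change 0.50, SE 0.13, limma adjusted p = 0.0127). It passed after length correction (log2 fold change 0.55, adjusted p = 0.0182) and was lost without WT replicate 4 (adjusted p = 0.0524). Its partner Aurkb had 4.54, 3.42 and 3.20 FPKM in WT and 4.21, 4.74 and 3.85 in KO, with overlapping groups (limma adjusted p = 0.297).

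Aurka, gene ID 20878, on chromosome 2 from 172356190 to 172370886, encodes the kinase of spindle poles. It had 3.62, 2.27 and 2.32 FPKM in WT and 3.74, 3.64 and 4.83 in KO, and WT replicate 2 lay just under the lowest KO library. Aurka rose 1.49-fold (log2 fold change 0.45, SE 0.15, limma adjusted p = 0.0348). It no longer passed without WT replicate 3 (adjusted p = 0.107) or 4 (adjusted p = 0.118), without KO replicate 2 (adjusted p = 0.0518) or 4 (adjusted p = 0.124), and after length correction (adjusted p = 0.124).

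The kinase and cyclins that drive mitosis did not pass. Cdk1 had 4.81, 3.498 and 3.74 FPKM in WT and 5.29, 6.499 and 4.35 in KO (log2 fold change 0.34, limma adjusted p = 0.0743). It passed after length correction (log2 fold change 0.49, adjusted p = 0.0343), without WT replicate 2 (log2 fold change 0.45, adjusted p = 0.0354) and without KO replicate 4 (log2 fold change 0.46, adjusted p = 0.0327). Cdk1 also passed as higher in limma with median-ratio scaling (adjusted p = 0.0454) and quantile normalization (adjusted p = 0.0244). In limma-voom on the recovered reads it passed as well (adjusted p = 0.0259). Ccnb2, a B cyclin, had 9.55, 3.77 and 4.44 FPKM in WT and 7.45, 9.84 and 8.56 in KO (limma adjusted p = 0.0936). Here WT replicate 2 lay within the KO range and WT replicates 3 and 4 lay well below it. Leaving out WT replicate 2 gave Ccnb2 a log2 fold change of 0.91 with an adjusted p of 0.00165. Ccnb2 also passed as higher in limma-voom on the recovered reads (log2 fold change 0.699, adjusted p = 0.038). Ccnb1 had 2.02 to 3.18 FPKM in WT and 2.78 to 3.66 in KO (limma adjusted p = 0.184). With quantile normalization Ccnb1 passed as higher in limma (log2 fold change 0.368, adjusted p = 0.0417). Its pseudogene Ccnb1-ps is listed separately in the table, so reads may be split between them. Ccna2, the A cyclin of S phase and G2, had 7.61, 3.60 and 4.26 FPKM in WT and 5.03, 6.31 and 4.90 in KO (limma adjusted p = 0.696). Without WT replicate 2 it passed as higher in KO (log2 fold change 0.38, adjusted p = 0.044).

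The genes most used as markers of dividing cells, Mki67 and Top2a, had lower means in KO and did not pass. Mki67 encodes Ki-67, which coats mitotic chromosomes, and lies on chromosome 7 from 135689784 to 135716450. It had 5.08, 2.77 and 2.99 FPKM in WT and 2.06, 2.80 and 1.86 in KO (log2 fold change -0.49, limma adjusted p = 0.0528). KO replicate 3 overlapped the WT range. After length correction the log2 fold change was -0.07, and it was 0.14 when WT replicate 2 was left out as well. Without WT replicate 2 and with no length correction it was -0.27 (limma adjusted p = 0.152). Mki67 passed as lower without WT replicate 3 (log2 fold change -0.615, adjusted p = 0.0328), without KO replicate 3 (log2 fold change -0.606, adjusted p = 0.0307) and in limma-voom on the recovered reads (log2 fold change -0.60, adjusted p = 0.028). Top2a, the topoisomerase that untangles sister chromatids, had 9.46, 5.53 and 6.02 FPKM in WT and 4.77, 6.15 and 5.12 in KO (limma adjusted p = 0.16). WT replicate 2 again set the high mean, and after length correction the log2 fold change was -0.09.

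Checkpoint and exit genes had overlapping groups. Cdc20, which activates the anaphase-promoting complex, had 12.6, 9.39 and 9.50 FPKM in WT and 12.7, 16.3 and 11.2 in KO (limma adjusted p = 0.0894). Without WT replicate 2 it passed as higher (log2 fold change 0.45, adjusted p = 0.0299), as it did without KO replicate 4 (log2 fold change 0.435, adjusted p = 0.048). Cdc20 also passed as higher in limma with quantile normalization (adjusted p = 0.0478) and in limma-voom on the recovered reads (adjusted p = 0.0424). Plk1, the polo kinase of mitotic entry, had 3.24 to 6.19 FPKM in WT and 5.29 to 5.86 in KO (limma adjusted p = 0.176), and it passed as higher without WT replicate 2 (log2 fold change 0.51, adjusted p = 0.0077). Bub1b, a kinase-like protein of the spindle checkpoint, had 3.04 to 4.71 FPKM in WT and 3.63 to 4.54 in KO. Bub1, a related checkpoint kinase under the filter, had 1.74, 0.999 and 0.769 FPKM in WT and 0.931, 1.06 and 0.989 in KO (exact two-sided permutation p = 0.8).

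Spindle and cytokinesis genes without a call were Kif11, Kif23, Tpx2, Nusap1 and Prc1. Kif11 is the motor that pushes spindle poles apart, Tpx2 activates the Aurka kinase, and Kif23 and Prc1 build the midzone. Their log2 fold changes ran from -0.17 for Kif23 to 0.25 for Nusap1, and limma adjusted p from 0.344 to 0.978. Nusap1 passed as higher without WT replicate 2 (log2 fold change 0.54, adjusted p = 0.0082). Kif23 had 5.98, 3.08 and 2.78 FPKM in WT and 3.18, 3.67 and 2.92 in KO, so WT replicate 2 alone was high. Hmmr, a spindle protein under the filter, had 0.898 to 1.65 FPKM in WT and 0.877 to 1.49 in KO (exact two-sided permutation p = 0.8).

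Cenpe and Cenpf, large kinetochore proteins with long transcripts, were under the filter and lower in every KO library. Cenpe had 1.19, 0.641 and 0.597 FPKM in WT and 0.484, 0.523 and 0.405 in KO, from 114 to 375 reads in a library. Cenpf had 0.786, 0.466 and 0.451 FPKM in WT and 0.245, 0.374 and 0.288 in KO, with 105 to 362 reads. An exact permutation test (two-sided) reached p = 0.1 for each gene, the smallest value that 3 against 3 samples allow. Limma without the filter gave an adjusted p of 0.214 for Cenpe and an adjusted p of 0.121 for Cenpf.

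**Figure D3:**
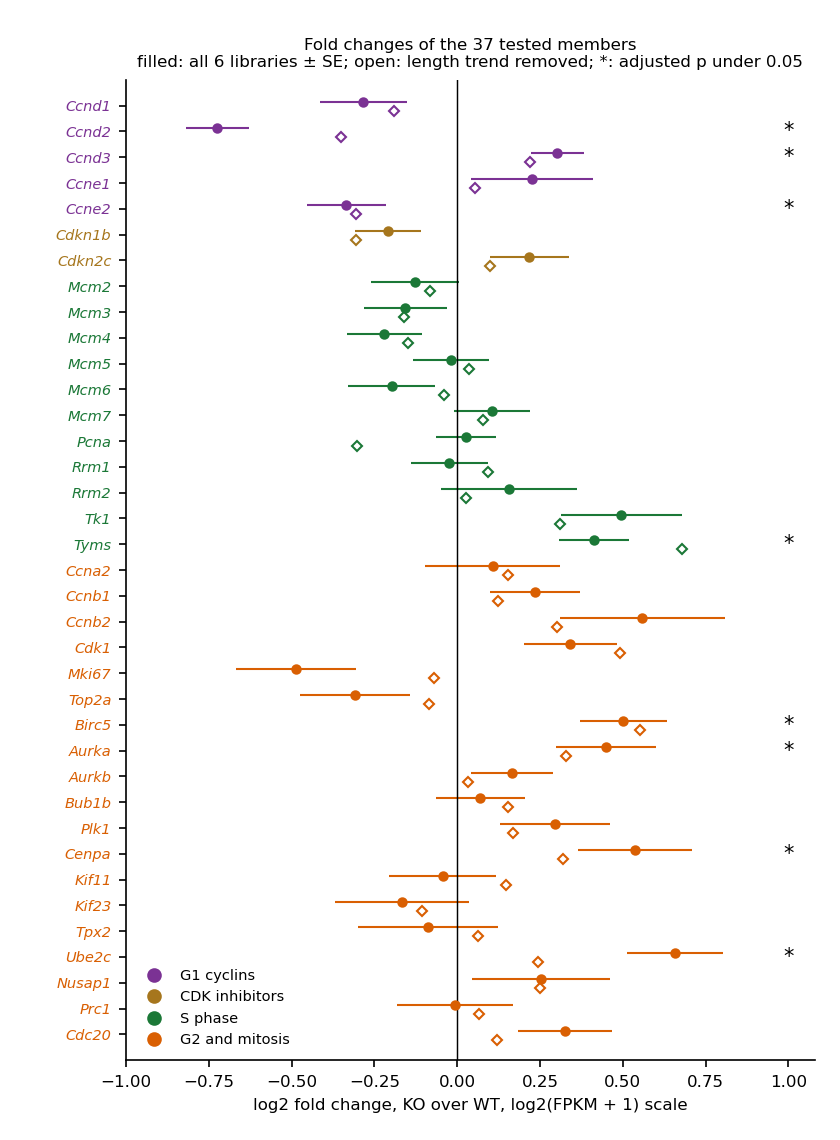
Log2 fold change (KO over WT) of the 37 tested members: filled circles ± SE from all 6 libraries, open diamonds with the transcript length trend removed, and asterisks for an adjusted p under 0.05. Ccnd2 and Tyms keep their side of 0 with room to spare, while Mki67, Top2a and Ube2c move toward 0 with the trend removed.

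S phase genes and G2 and mitosis genes were then compared within each library, as a description without a test. The mean log2(FPKM + 1) of the 11 S phase genes was 4.53, 4.07 and 4.10 in WT replicates 2, 3 and 4 and 4.27, 4.37 and 4.19 in the KO libraries. For the 23 G2 and mitosis genes it was 2.51, 1.94 and 1.95 in WT and 2.19, 2.34 and 2.22 in KO. WT replicate 2 was the highest library and WT replicates 3 and 4 the lowest in both groups of genes, with all KO libraries in between. The KO libraries did not lie apart from the WT libraries on 1 side.

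The distance between the groups was S phase minus G2 and mitosis, on the same scale. It was 2.02, 2.13 and 2.16 in WT and 2.08, 2.03 and 1.97 in KO, a mean of 2.104 ± 0.0703 against 2.03 ± 0.0558. The genotypes overlapped, since WT replicate 2 lay within the KO range. The KO mean minus the WT mean was 0.04 for S phase genes and 0.12 for G2 and mitosis genes. Leaving out WT replicate 2 gave 0.19 and 0.31. After length correction, over the 11 S phase genes and the 19 tested G2 and mitosis genes, the distance was 1.74, 1.89 and 1.90 in WT and 1.77, 1.72 and 1.65 in KO, and the groups again overlapped.

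**Figure D4:**
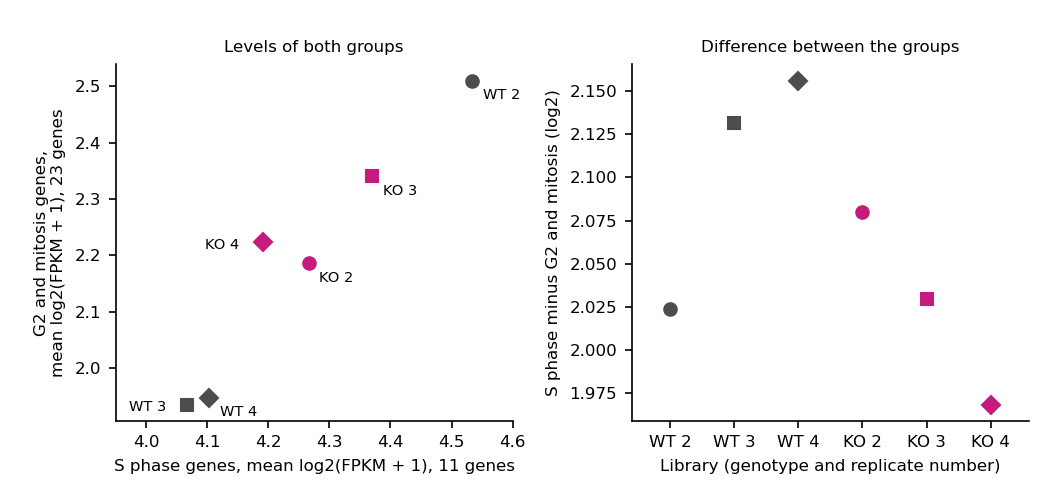
Left, mean log2(FPKM + 1) of the 11 S phase genes against that of the 23 G2 and mitosis genes in each library (axes do not start at 0); right, the difference between them per library. The 3 KO libraries lie between WT replicate 2 and WT replicates 3 and 4 on the left.

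Reads recovered from the FPKM values gave the same order of libraries for the G2 and mitosis genes. These genes took 410.8, 239.4 and 248.5 of every 1000000 reads in WT replicates 2, 3 and 4, and 288.8, 340.6 and 294.2 in KO replicates 2, 3 and 4. For S phase genes the values were 880.2, 640.3 and 680.9 in WT and 704.8, 766.3 and 661.4 in KO, where KO replicate 4 fell between WT replicates 3 and 4. The G2 and mitosis reads were 0.467, 0.374 and 0.365 times the S phase reads in WT and 0.41, 0.445 and 0.445 times in KO. In reads, where long transcripts weigh more, WT replicate 2 thus had the highest such ratio of the 6 libraries. The order differed on the log2 scale above. There the distance was smallest in KO replicate 4, at 1.97 against 2.02 in WT replicate 2. After length correction it was 1.65 and 1.72 in KO replicates 4 and 3, against 1.74 in WT replicate 2.

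Transcript length went with the direction of change among the members. Lengths implied by FPKM and reads ran from 931 nt for Ube2c to 11366 nt for Cenpf. Spearman's rho of the log2 fold change with length was -0.81 across the 19 tested G2 and mitosis genes, -0.40 across the 11 S phase genes and -0.72 across all 10806 tested genes. Genes share libraries and are not independent replicates. Short mitotic genes such as Ube2c and Cenpa (1714 nt) stood above 0 and long ones such as Mki67 (10258 nt) and Top2a (5239 nt) below. After length correction 5 members passed, against 18.7% of all tested genes. Tyms, Birc5 and Cdk1 were higher, against a background of 9.28%, and Ccnd2 and Pcna lower, against 9.42%. Of the 19 tested G2 and mitosis genes 16 then had a log2 fold change above 0, against 49.6% of all tested genes. Pcna, at 1260 nt, had a log2 fold change of -0.30 in that fit (adjusted p = 0.0418), against 0.03 before. The rho of the G2 and mitosis genes was then -0.41. The implied lengths of Tyms (5937 nt), Birc5 (3416 nt) and Cdk1 (4349 nt) are those by which the authors' values were scaled, and whether the transcripts in these cells are that long was not tested.

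**Figure D5:**
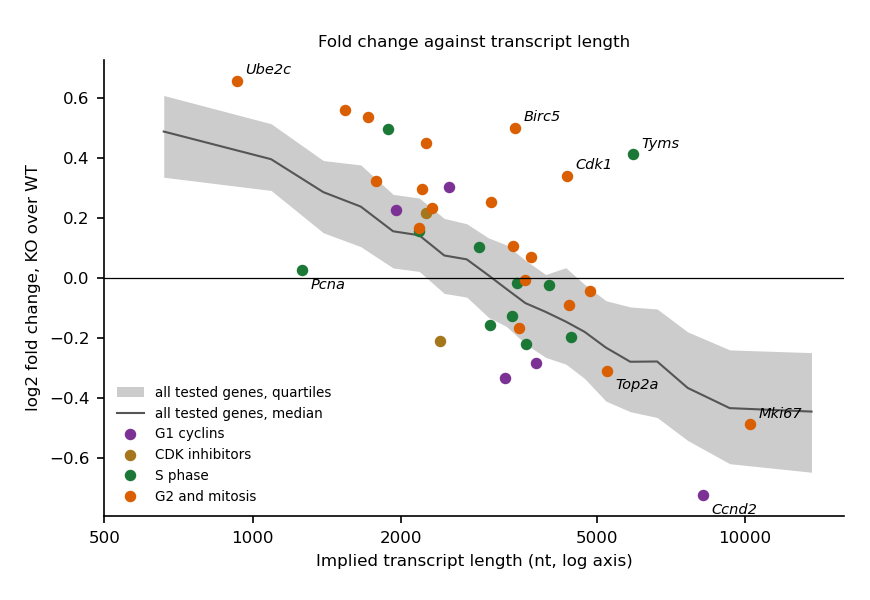
Log2 fold change (KO over WT) against implied transcript length in nt on a log axis, for the 37 tested members by role; the line and band are the median and quartiles of all tested genes in 20 length bins. Mki67 and Top2a lie in the band, Ube2c, Birc5, Cdk1 and Tyms are among the members above it, and Ccnd2 and Pcna are among those below it.

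When the length trend and WT replicate 2 were both left out, a fit chosen after seeing the data, 10 members passed, against 13.5% of all tested genes (6.54% higher, 6.99% lower). Of these 7 were G2 and mitosis genes, all higher: Ccnb2, Cdk1, Birc5, Aurka, Cenpa, Ube2c and Nusap1. Tyms and Ccnd3 were the others that rose, and Ccnd2 fell. All 19 tested G2 and mitosis genes then had a log2 fold change above 0, with a median of 0.34, and 8 of 11 S phase genes did, with a median of 0.15, against 49.4% of all tested genes. The fit leaves 2 WT libraries, and it was not tested which of the WT libraries is typical of that genotype.

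Further genes of the pathway came from 5 lists of 166 symbols, of which 164 were found and 142 tested. Of these 21 rose and 21 fell, together 29.6% against 44.2% of all tested genes. In the replication list 7 of 45 rose and 3 fell, together 22.2%, with a median log2 fold change of 0.03. Rpa3, a subunit of the single-strand binding protein, rose from 18.8 ± 2.51 to 25.4 ± 2.04 FPKM (limma adjusted p = 0.0094). Gins4 and Gins2, subunits of the GINS complex of the replicative helicase, rose 1.28-fold and 1.31-fold. Pola1, the catalytic subunit of the primase polymerase, fell 1.56-fold, the maintenance methyltransferase gene Dnmt1 fell 1.27-fold, and Rfc1, of the clamp loader, fell 1.23-fold. None of these 6 genes passed after length correction in limma, where their adjusted p ran from 0.272 to 0.848, and Rfc1 did not pass without WT replicate 2 (adjusted p = 0.116).

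In the mitosis list 6 of 46 rose and 5 fell, together 23.9% against 44.2% of all tested genes, with a median of 0.09. H2az1, a histone variant gene, rose from 105.6 ± 8.09 to 136.3 ± 7.52 FPKM, Spc24, of the kinetochore, rose 1.39-fold, and Anapc11, a subunit of the anaphase-promoting complex, rose 1.21-fold. Anapc1 and Cdc27, larger subunits of the same complex, fell 1.46-fold and 1.596-fold, and the microtubule polymerase gene Ckap5 fell 1.57-fold. Of these 6 genes Anapc11 alone passed after length correction (log2 fold change 0.33, limma adjusted p = 0.0159). WT replicate 2 was the highest WT library for 53 of the 58 measured genes of this list and for 44 of 49 replication genes.

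Of 20 tested kinase and checkpoint genes 4 rose and 5 fell, 45.0% of the list and near the 44.2% of all tested genes. Cdk4, the main partner of D cyclins, rose from 100.5 ± 15.2 to 129.8 ± 4.39 FPKM (log2 fold change 0.38, limma adjusted p = 0.0132), and Cdk6, the other partner, fell from 1.39 ± 0.158 to 0.574 ± 0.125 (log2 fold change -0.60, limma adjusted p = 0.00241). Cdk6 met the filter only through its WT libraries, and it also passed without the filter (adjusted p = 0.0132). The implied lengths of Cdk4 and Cdk6 were 1420 nt and 12097 nt, and after length correction neither passed in limma (adjusted p = 0.469 and adjusted p = 0.257). Ccnh, a cyclin of the CDK-activating kinase, rose 1.296-fold and the checkpoint kinase gene Chek2 rose 1.23-fold. Atm, the DNA damage kinase, fell 2.09-fold. It too met the filter through WT alone, with an adjusted p of 0.0218 without the filter, and after length correction its log2 fold change was -0.07 (limma adjusted p = 0.649). Fbxw7, which marks cyclin E for destruction, fell from 4.89 ± 0.426 to 2.85 ± 0.419 FPKM. Fbxw7 and Chek2 passed after length correction (limma adjusted p = 0.0396 and adjusted p = 0.0107), while Chek2 did not pass without WT replicate 2 (adjusted p = 0.0564).

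Among the retinoblastoma, E2F and DREAM complex genes 1 of 16 rose and 4 fell, together 31.2% against 44.2% of all tested genes. Their median log2 fold change was -0.19 and became -0.04 after length correction. Rbl2, the p130 pocket protein of resting cells, fell from 6.52 ± 0.42 to 4.62 ± 0.342 FPKM. Dyrk1a, the kinase that assembles the DREAM complex, fell 1.55-fold and Tfdp2, a partner of E2F factors, fell 1.504-fold, while Lin37, a DREAM subunit, rose 1.34-fold. None of these 4 genes passed after length correction in limma, where adjusted p ran from 0.0711 for Rbl2 to 0.857 for Tfdp2, and Lin37 did not pass without WT replicate 2 (adjusted p = 0.0836). E2f1, an activating E2F, had 7.23, 4.23 and 4.66 FPKM in WT and 5.45, 6.36 and 5.71 in KO. Of all genes tested that are no members, E2f1 had the pattern over the 6 libraries most like the mean of the G2 and mitosis genes (Pearson's r = 0.99), followed by Nme7 and Me1 (r = 0.986 and 0.985). This likeness rests on the high value of WT replicate 2 and the low values of WT replicates 3 and 4, and was chosen as the highest of many.

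In the list of other CDK inhibitors and quiescence genes 3 of 15 rose and 4 fell, 46.7% of the list and near the 44.2% of all tested genes. Btg2, an antiproliferative early response gene, fell from 55.0 ± 3.33 to 35.7 ± 1.61 FPKM (log2 fold change -0.61, limma adjusted p = 0.000523), and Btg1, of the same family, rose from 33.2 ± 2.02 to 43.7 ± 3.14 (log2 fold change 0.39, limma adjusted p = 0.00392). Foxo1 and Foxo3, transcription factors linked to quiescence, fell 1.62-fold and 1.63-fold. Btg1, Btg2 and Foxo1 also passed after length correction, with limma log2 fold changes of 0.59, -0.60 and -0.40. Gadd45g rose 1.39-fold and Cdkn2d, which encodes the p19 inhibitor of Cdk4 and Cdk6, rose 1.296-fold, and Cdkn2d did not pass without WT replicate 2 (adjusted p = 0.0647).

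Of the 41 members, 9 have a q under 0.05 with a higher level in KO in the authors' deposited table, and 3 with a lower. The same threshold was met by 29.3% of its 17686 genes. In the authors' deposited table Ccnd2 had a log2 fold change of -0.70 (q = 6.61e-12), Tyms 0.54 (q = 8.03e-05), Ube2c 0.76 (q = 0.000283) and Birc5 0.68 (q = 0.00118). The authors' deposited table also lists Cenpf at -0.84 (q = 0.0121) and Cenpe at -0.71 (q = 0.0443) as lower. It lists Tk1 at 0.58 (q = 0.0161), Cdk1 at 0.49 (q = 0.0162) and Cdc20 at 0.42 (q = 0.0386) as higher. Ccne2 at -0.63 did not pass there (q = 0.12). Of the called members, Ccnd2, Ccnd3, Ccne2 and Aurka overlap neighbouring genes in the table by annotation (among them 9330179D12Rik, Bysl, Ints8 and Cstf1). Of the members not called, Ccnd1, Mcm7, Tk1, Ccna2, Nusap1, Prc1 and Cdc20 do so too. Whether the counting used strand was not given in the sources used here.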

How the data were processed

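Per the labels' protocols, the TruSeq Stranded mRNA kit turned total RNA into libraries. The authors deposited FPKM values per gene and library, and a second table of KO against WT, which per the file headers gives normalized signal averaged by group, a linear fold change (ratio), its log2, and p-values and q-values. Per the submitters' processing notes, which give no roles, the build was mm10 and the tools included DESeq2 1.22.1, featureCounts 1.6.2, HISAT2 2.1.0, fastp 0.19.3 and StringTie 1.3.4d.

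The expression filter (1 FPKM or more in 3 or more libraries) was followed by limma 3.58.1 with trend, under R 4.3.3, on log2(FPKM + 1), genotype only, with Benjamini-Hochberg adjustment over all tested genes. Genes under the filter got exact two-sided permutation tests over samples. Combining FPKM with the group means of the second table gave whole reads (below 1000 reads, 100.0% of the values came out whole at a tolerance of 0.05), the depth and an implied length per gene. A lowess curve (span 0.3) of each library's deviation on log2 length was subtracted for the length-corrected fit. The limma scripts were checked on simulated data. Coordinates came from RefSeq (GRCm38.p6), matched by gene ID for 41 of 41 members. Tables and plots were made in Python 3.11.15 (matplotlib 3.10.9, scipy 1.17.1, pandas 2.3.3).

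The members and lists were chosen with earlier results of these data known. Genes named from the further lists were up to 3 per direction with the smallest p among those called. Per-library values are given for called members, the 3 most abundant of each role, and others chosen after their values were seen. The planned search of promoter motifs was not run. No sequence is shown.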

Additional observations from a re-analysis of the deposited data

How the results depend on the processing

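Of 541 recomputed values of tested members, 426 kept direction and side of the threshold, 31 lost a call, 37 gained one and 47 changed sign, none of these in a called gene. The cause was not tested. Members called higher numbered 3 with no filter, 10 with quantile normalization, 3 with the length trend removed and 10 with limma-voom on recovered reads, and 2 to 16 when 1 library was left out. Members called lower numbered 1 with no filter, at FPKM of at least 5, with median-ratio scaling, with the replicate block, and with both the length trend removed and WT replicate 2 left out, and 1 to 4 when 1 library was left out. S phase calls numbered 2 at FPKM of at least 5, with median-ratio scaling, quantile normalization, the replicate block, the length trend removed and limma-voom, and 1 to 4 when 1 library was left out. G2 and mitosis calls numbered 1 with no filter, 2 at FPKM of at least 5, 7 with quantile normalization, 2 with the length trend removed, 7 with that and without WT replicate 2, 8 with limma-voom and 1 to 10 when 1 library was left out. At FPKM of at least 5 the called members Birc5, Aurka and Ccne2 lay under the filter and were not tested. The mean log2 fold change of tested S phase genes minus that of tested G2 and mitosis genes was -0.14, against -0.08 with no filter, -0.27 at FPKM of at least 5, -0.23 with quantile normalization and -0.19 to -0.11 when 1 library was left out. The values with no filter and at FPKM of at least 5 differ from -0.14 only through which G2 and mitosis genes were tested. The log2 fold change of each gene was the same in these fits.

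Deviations from the group means had correlations of -0.20, -0.35 and -0.22 between same-numbered libraries, and of 0.002 to 0.199 between the others. Such deviations sum to 0 within each group of 3 and so offset each other. These values therefore cannot decide whether the replicate numbers pair the samples. With the replicate block 6 members were called higher, and Aurka (adjusted p = 0.0547) and Ccne2 (adjusted p = 0.0838) no longer passed in limma, while Tk1 gained a call (adjusted p = 0.0163). Tk1 also passed at FPKM of at least 5, with median-ratio scaling, quantile normalization and limma-voom, with an adjusted p from 0.0189 to 0.0382.

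The log2 fold change changed sign in these members, none of them called with all 6 libraries. With the length trend removed and WT replicate 2 left out it was 0.066 for Mcm2, 0.154 for Mcm5, 0.078 for Mcm6, -0.243 for Pcna, 0.212 for Rrm1, 0.144 for Mki67, 0.113 for Top2a, 0.336 for Kif11, 0.154 for Kif23, 0.320 for Tpx2 and 0.275 for Prc1. With median-ratio scaling it was 0.032 for Mcm5, 0.025 for Rrm1 and 0.037 for Prc1. With the length trend removed it was 0.037 for Mcm5, -0.302 for Pcna, 0.092 for Rrm1, 0.149 for Kif11, 0.064 for Tpx2 and 0.066 for Prc1. With limma-voom it was 0.041 for Mcm5, 0.034 for Rrm1, 0.002 for Kif11 and 0.050 for Prc1. With quantile normalization it was -0.099 for Pcna, 0.054 for Kif11, 0.032 for Tpx2 and 0.117 for Prc1. When 1 library was left out it ran from -0.230 to 0.037 for Mcm2, -0.089 to 0.116 for Mcm5, -0.001 to 0.243 for Mcm7, -0.037 to 0.115 for Pcna, -0.100 to 0.110 for Rrm1, -0.020 to 0.438 for Rrm2, -0.076 to 0.376 for Ccna2, -0.050 to 0.200 for Bub1b, -0.168 to 0.154 for Kif11, -0.331 to 0.111 for Kif23, -0.308 to 0.180 for Tpx2 and -0.142 to 0.218 for Prc1.

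The tested members with the fewest reads were Ccne2, with 62 to 168 per library, and Ccne1, with 63 to 135. With 3 libraries per genotype, 1 library that stands apart moves the counts of calls.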
